A study of Rattus norvegicus with 6 samples.

Results

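The interleukin-1 (IL-1) family was examined in neonatal rat cardiac fibroblasts (NRCFs), as 10 genes for ligands, receptors and antagonists that were picked by symbol, out of 21857 symbols in the count files. All 10 were present, and all 10 passed the filter on low counts that left 12941 genes to test. NRCFs are the collagen-making cells of the heart, cultured here from rats at most 3 days old. RNA-seq covered 6 libraries. In 3 of them, labelled wild type and called Vector, the cells received an empty plasmid, and in the other 3, labelled FTO overexpression, a plasmid of FTO, a demethylase that removes N6-methyladenosine from RNA. By that description the cells of both groups were transfected, which the counts do not show for the second group, as the level of Fto below tells. The series describes the rats as Sprague-Dawley while the strain label reads Noway. Nothing states that replicates came from separate cultures, so p-values measure the spread between these libraries, which may be technical.

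Total counts ran from 13178952 to 17857999 per library, and a floor of 3 counts was worth 0.168 to 0.227 CPM, a count scaled to the size of its library. Across genes, log2 CPM of libraries of 1 group had correlations of 0.993 to 0.996, and those of different groups 0.887 to 0.894. Fto lay at 87.4 to 89.6 CPM in the Vector libraries and at 90.8 to 93.2 CPM in those labelled FTO, and its log2 fold change of 0.06 (SE 0.0468) did not pass the test (adjusted p-value 0.239, edgeR, 95% interval of the fold 0.976 to 1.12). No rise of Fto was detected, so the counts leave the overexpression unverified, and the second group is called the libraries labelled FTO. The study reports checks of the transfection by qRT-PCR and at the protein level, and does not state that these libraries came from the cultures checked.

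IL-1α, IL-1β, IL-18 and IL-33 are cytokines that alert neighbouring cells to injury or infection. IL-1α and IL-1β bind the receptor IL-1R1, which then recruits the accessory protein IL-1RAP and signals through MyD88 and IRAK kinases to NF-κB, while IL-33 uses the receptor ST2 (encoded by Il1rl1) with the same accessory protein. Several brakes exist: IL-1Ra (Il1rn) occupies IL-1R1 without signalling, IL-1R2 is a decoy receptor, and IL-18BP captures IL-18. In the heart, fibroblasts respond to IL-1 after infarction, and IL-33 with ST2 is known as a pathway between fibroblasts and cardiomyocytes.

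Compared to the Vector group, 7 of the 10 genes rose and 3 fell. Il1a and Il1b, nearly silent in Vector, showed the greatest changes among them, followed by the antagonist Il1rn, then Il18bp, Il33, Il1r2 and Il1r1. The receptor Il1rl1, the ligand Il18 and the accessory chain Il1rap were lower. All 10 passed the quasi-likelihood test of edgeR at an adjusted p-value of 0.05, against 65.9% of all genes tested, of which 33.2% were higher and 32.8% lower. Il1a and Il1b passed the filter on low counts only through the libraries labelled FTO, so a call on them could only be higher. At the threshold of the study, a log2 fold change of at least 1 in size with an unadjusted p-value under 0.05, 8 of the 10 passed, 7 of them higher and 1 lower, against 19.6% of all genes. For each of the 10, every library of one group lay above every library of the other in CPM, which held for 70.3% of all genes. The median absolute log2 fold change was 1.68 over the 10 genes and 0.363 over all genes tested, and the signed medians were 1.60 and 0.00107. The median of the 10 is the same with Il1a at its bound. Because the 10 genes were chosen with earlier results of these data known, these counts and medians are a description. They are not independent evidence that the family stands apart from all genes.

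**Figure D1:**
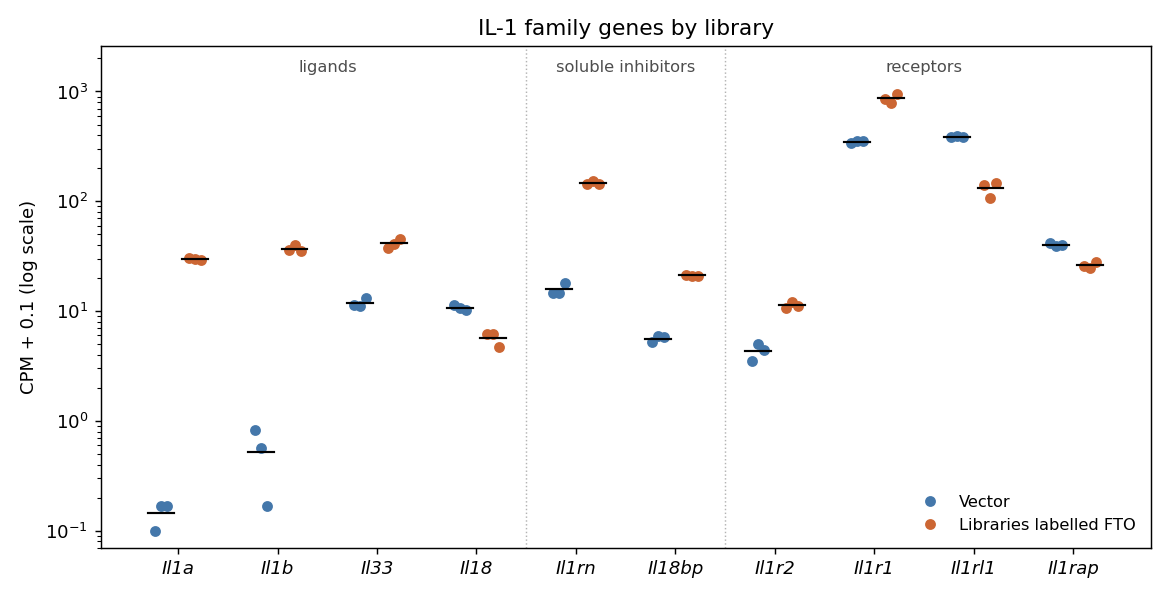
CPM of the 10 genes in each library, with 0.1 CPM added so that a count of 0 can be drawn on the log axis. Points are libraries (3 Vector, 3 labelled FTO) and short bars are group means. Il1a and Il1b lie at 0.732 CPM or less in Vector and between 29.2 and 39.5 CPM in the libraries labelled FTO, and no gene has overlapping groups.

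The ligands were taken first. Il1a, which encodes a cytokine that is active as its precursor and is released from damaged cells, had 0, 1 and 1 counts in Vector replicates 1, 2 and 3. In FTO replicates 1, 2 and 3 it had 436, 396 and 523 counts, or 30.6, 29.9 and 29.2 CPM. Every Vector library was under the floor of 3 counts, so the change is known as a bound, at least 136-fold higher against that floor per library (adjusted p-value 2.8e-14, edgeR). Il1b, whose product is made as an inactive precursor, was at 0.732, 0.470 and 0.0693 CPM in Vector, from 10, 7 and 1 counts. In the libraries labelled FTO it was at 35.6, 39.5 and 34.8 CPM. The Vector values spread widely at this depth, yet the highest of them was far under the lowest of the other group. The log2 fold change of Il1b was 6.42 (SE 0.214), an 85.7-fold rise with a 95% interval from 62.4 to 118 (adjusted p-value 6.0e-13, edgeR). It was 7.02 without Vector replicate 1 and 5.92 without Vector replicate 3, both outside that interval (5.96 to 6.88 on the log2 scale).

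Il33, which encodes a nuclear cytokine of stromal cells, was at 11.2, 11.1 and 13.2 CPM in Vector and at 37.8, 40.9 and 45.5 CPM in the libraries labelled FTO. It rose by a log2 fold change of 1.81 (SE 0.0953, adjusted p-value 1.7e-10, edgeR), a fold with a 95% interval from 3.04 to 4.04. Il18, which encodes a cytokine that needs caspase-1 for activation and raises interferon-γ in lymphocytes, went the other way. It was at 11.3, 10.7 and 10.04 CPM in Vector and at 6.03, 6.12 and 4.58 CPM in the libraries labelled FTO. Il18 was thus the ligand of the 4 that fell, by 0.95 on the log2 scale (SE 0.138, adjusted p-value 2.2e-05, edgeR), with no overlap between the groups. Its change was under the size that the study required.

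Both genes for soluble inhibitors rose. Il1rn, which encodes the receptor antagonist, was at 14.4, 14.6 and 18.1 CPM in Vector and at 144, 153 and 143 CPM in the libraries labelled FTO. The groups were separated by far more than the spread within them, with a log2 fold change of 3.22 (SE 0.0747), or 9.31-fold (95% interval 8.34 to 10.4, adjusted p-value 7.4e-15, edgeR). Il18bp, which encodes the binding protein that neutralises IL-18, was at 5.12, 5.77 and 5.68 CPM in Vector and at 21.4, 20.9 and 20.8 CPM in the libraries labelled FTO. It rose by a log2 fold change of 1.93 (SE 0.104, adjusted p-value 2.2e-10, edgeR), a fold with a 95% interval from 3.26 to 4.43. Counts per gene do not separate the secreted from the intracellular forms of the antagonist.

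The 4 genes with the largest fold changes, Il1a, Il1b, Il1rn and Il18bp, rose together. Their RefSeq promoter windows (GRCr8, 250 bases before to 50 after an annotated start) are printed. Whether transcription began at these starts in these cells was not measured. The count files are from another build, named rn6 in the submitters' processing notes, and gave no coordinates. A window was found for 9 of the 10 genes. Capitals mark matches, on either strand, to 5 motifs: κB as GGGNNTTCC, the interferon-stimulated response element (ISRE) as GAAANNGAA, the STAT site GAS as TTCNNNGAA, AP-1 as TGANTCA and C/EBP as TTGCNNAA. The windows lie at chr3:136989968-136990267 on the minus strand for Il1a, chr3:137036532-137036831 on the minus strand for Il1b, chr3:27520072-27520371 on the plus strand for Il1rn and chr1:165786906-165787205 on the minus strand for Il18bp.
Il1a: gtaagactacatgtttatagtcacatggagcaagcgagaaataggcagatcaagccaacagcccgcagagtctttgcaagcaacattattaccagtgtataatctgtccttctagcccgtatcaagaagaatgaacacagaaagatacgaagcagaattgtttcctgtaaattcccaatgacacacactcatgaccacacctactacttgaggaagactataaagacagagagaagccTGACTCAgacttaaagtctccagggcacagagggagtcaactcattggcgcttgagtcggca
Il1b: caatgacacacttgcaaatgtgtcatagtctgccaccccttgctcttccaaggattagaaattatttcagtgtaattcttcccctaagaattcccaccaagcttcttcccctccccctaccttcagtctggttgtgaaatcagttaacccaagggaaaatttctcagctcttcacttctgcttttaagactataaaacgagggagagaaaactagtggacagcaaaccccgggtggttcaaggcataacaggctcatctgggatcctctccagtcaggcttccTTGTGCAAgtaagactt
Il1rn: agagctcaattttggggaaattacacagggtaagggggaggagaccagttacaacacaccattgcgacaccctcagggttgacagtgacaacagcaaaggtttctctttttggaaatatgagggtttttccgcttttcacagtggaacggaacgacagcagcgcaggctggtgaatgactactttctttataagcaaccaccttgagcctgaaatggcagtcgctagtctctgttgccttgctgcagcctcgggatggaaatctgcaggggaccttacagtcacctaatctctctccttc
Il18bp: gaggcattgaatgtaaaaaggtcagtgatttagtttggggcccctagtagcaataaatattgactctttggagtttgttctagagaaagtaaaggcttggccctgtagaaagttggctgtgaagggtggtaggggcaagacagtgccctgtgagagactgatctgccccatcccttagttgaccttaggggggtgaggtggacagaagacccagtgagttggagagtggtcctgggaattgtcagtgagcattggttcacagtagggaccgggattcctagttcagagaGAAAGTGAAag

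The Il1a window held 1 AP-1 match at bases 239 to 245, counted from 1 at the 5′ end of the window. The Il1b window held 1 C/EBP match at bases 284 to 291, and the Il18bp window 1 ISRE match at bases 290 to 298. None of the 5 motifs was found in more than 1 of these 4 windows. The Il1rn window, which starts inside the annotated gene, had no match. Among all 33469 windows, 5.92% held the κB letters, 9.71% the ISRE, 8.87% the GAS, 7.33% the AP-1 and 10.6% the C/EBP letters. Of the other members, Il1r1 had 2 κB matches and Il18, which fell, had 1 AP-1 match. Il1rap, which also fell, had 1 κB and 1 ISRE match in each of its 2 windows, the matches of which coincide because the windows overlap. Of the 2 windows of Il33, 1 had a C/EBP match, and Il1rl1 had none of the 5 motifs. These are matches of letters and not measured binding sites.

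The receptors for IL-1 were both higher. Il1r1, which encodes the signalling receptor, was at 343, 352 and 351 CPM in Vector and at 858, 784 and 949 CPM in the libraries labelled FTO. It rose 2.48-fold, by a log2 fold change of 1.31 (SE 0.0570, adjusted p-value 1.6e-11, edgeR), from a mean of 9104 counts per library. Il1r2, the decoy receptor that binds IL-1 without signalling, was at 3.44, 4.90 and 4.36 CPM in Vector and at 10.5, 12.1 and 11.0 CPM in the libraries labelled FTO. Its log2 fold change was 1.39 (SE 0.144, adjusted p-value 5.7e-07), a 2.63-fold rise with a 95% interval from 2.12 to 3.26. The interval of Il1r2 holds the whole interval of Il1r1, from 2.28 to 2.70.

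The receptor for IL-33 and the shared accessory chain were lower. Il1rl1, which encodes ST2, was at 385, 393 and 386 CPM in Vector and at 142, 108 and 148 CPM in the libraries labelled FTO. It was 2.92-fold lower (log2 fold change -1.55, SE 0.0819, adjusted p-value 1.8e-10, edgeR), while its ligand gene Il33 rose. Il1rap was at 41.2, 38.8 and 39.9 CPM in Vector and at 25.5, 24.6 and 27.8 CPM in the libraries labelled FTO. Its fall of 1.53-fold was the smallest change of the 10, with a log2 fold change of -0.62 (SE 0.0703, adjusted p-value 1.7e-06) that did not reach the size required by the study. Soluble and membrane-bound forms of ST2, IL-1RAP and the other receptors are counted together under 1 symbol.

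**Figure D2:**
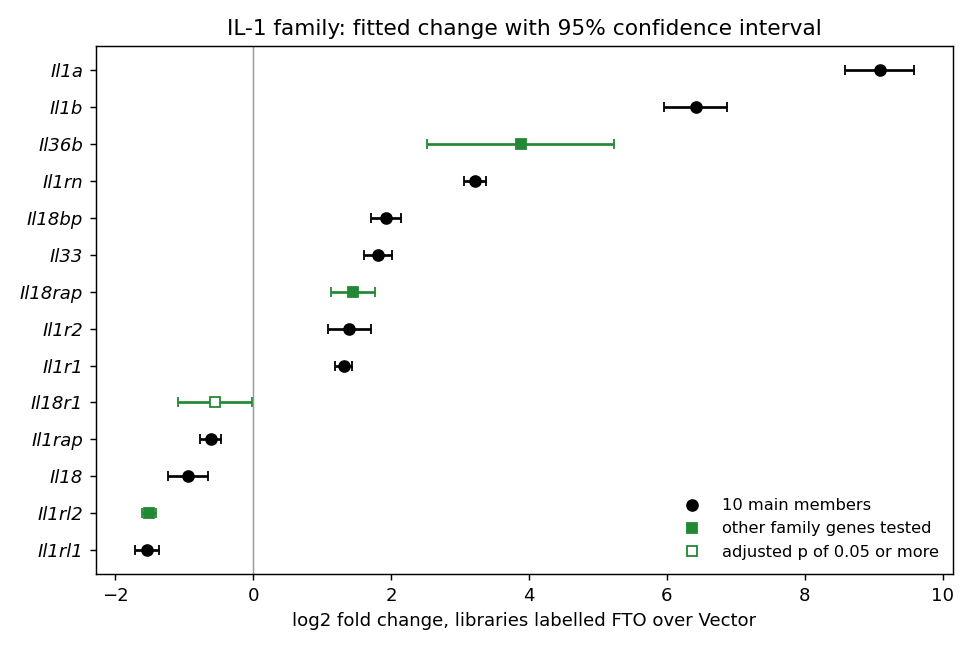
Fitted log2 fold change (x axis) of the 10 genes and of the 4 other IL-1 family genes that could be tested, with 95% confidence intervals from edgeR. Filled symbols passed an adjusted p-value of 0.05. The values run from -1.55 (Il1rl1) to 9.09 (Il1a), a fitted value that depends on the prior count.

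To see how the brakes moved relative to the ligands or receptors of their pathway, count ratios were taken within each library, where library size cancels. Lengths differ between genes, so only the change of a ratio between the groups was read. Every Vector library had 65.7 or more Il1rn counts per Il1a count, with Il1a set to its floor, and every library labelled FTO between 4.69 and 5.11. For Il1b, the Vector libraries had 19.7 to 261 Il1rn counts per count of the ligand, and those labelled FTO 3.87 to 4.10. The antagonist thus rose less than either ligand, and the log2 ratio to Il1b changed by -3.52 in the mean, with library pairs from -5.50 to -2.20. That mean was -2.55 without Vector replicate 3 and -4.16 without Vector replicate 1, where Il1b had 1 and 10 counts. The exact two-sided permutation test gave 0.1 for both ratios, the smallest value that 3 libraries against 3 allow.

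The other 2 ratios behaved differently from each other. The log2 ratio of Il18bp to Il18 was -0.94 ± 0.166 in Vector and 1.92 ± 0.224 in the libraries labelled FTO (SD, n = 3 each, exact permutation p = 0.1), a difference of 2.87 in the mean. There were 0.455 to 0.566 Il18bp counts per Il18 count in Vector and 3.42 to 4.55 in the libraries labelled FTO, since the 2 genes moved in opposite directions. For the decoy Il1r2 against Il1r1, the log2 ratio was -6.37 ± 0.237 in Vector and -6.26 ± 0.217 in the libraries labelled FTO (SD, n = 3 each, exact permutation p = 0.6). The groups overlapped and the differences between single libraries ran from -0.27 to 0.61, so no shift of the decoy against the signalling receptor was detected. The mean difference was 0.10, and -0.02 without Vector replicate 1 or without FTO replicate 2.

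**Figure D3:**
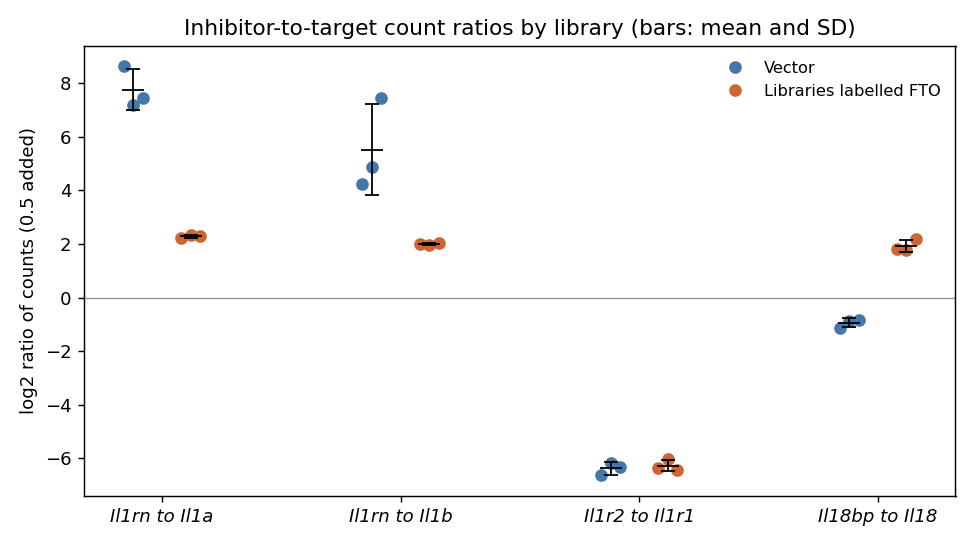
Log2 ratio of counts (y axis, 0.5 count added to each gene) in each library for 4 pairs of genes. Each pair sets the gene of an inhibitor against that of a ligand or receptor of the same pathway, which is not always what the inhibitor binds. Points are libraries, and black bars give the mean and SD of 3 libraries. Groups are apart for Il1rn to Il1a, Il1rn to Il1b and Il18bp to Il18, and overlap for Il1r2 to Il1r1.

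Of 11 other IL-1 family genes, 4 had enough counts to test. Il1rl2, which encodes the receptor for the IL-36 cytokines, was at 193 ± 2.39 CPM in Vector and 67.7 ± 2.5 CPM in the libraries labelled FTO, a log2 fold change of -1.51 (SE 0.0465, adjusted p-value 2.2e-13, edgeR). Il18rap, the accessory chain of the IL-18 receptor, rose from 41, 40 and 42 counts to 108, 107 and 140 counts (log2 fold change 1.45, SE 0.149). Its partner Il18r1 had 29, 34 and 34 counts in Vector and 25, 14 and 31 in the libraries labelled FTO, and did not pass (log2 fold change -0.55, SE 0.252, adjusted p-value 0.0670). The ligand gene Il36b, with 4, 0 and 0 counts in Vector and 24, 22 and 21 in the libraries labelled FTO, was higher too. As it passed the filter on low counts only through the latter, a call on it could only be higher. Il36b overlaps Il1rn in the RefSeq annotation, and whether the counting used strand is not stated. The other 7 genes, among them Il36a, Il36g, Il36rn and the inhibitory receptor Sigirr, had at most 4 counts in any library. Il18rap, Il18r1 and Il36b are named here because of their values.

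In the RefSeq annotation, 6 of these receptor genes follow each other along 1 chromosome in the order Il1r2, Il1r1, Il1rl2, Il1rl1, Il18r1 and Il18rap, with 1 further protein-coding model, H3f3al3, among them. Neighbours in this cluster did not all change the same way. The first pair rose (1.39 and 1.31), the next pair fell (-1.51 and -1.55), Il18r1 did not pass the test and Il18rap rose (1.45), all as log2 fold changes.

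**Figure D4:**
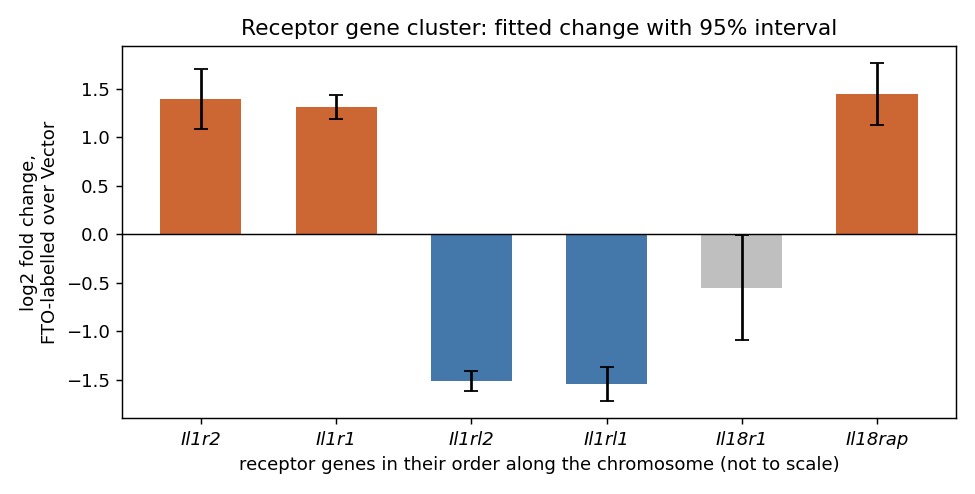
Fitted log2 fold change (y axis) of the 6 clustered receptor genes in their chromosomal order, with 95% confidence intervals. Orange bars rose, blue bars fell, and the grey bar (Il18r1) did not pass an adjusted p-value of 0.05.

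The genes that carry the signal from these receptors came next. Of 30 listed, 29 were in the files and 27 were tested, of which 13 rose, 4 fell and 10 did not pass. These 17 calls among 27 genes were near the 65.9% of all genes, and the median absolute log2 fold change of 0.307 was near the 0.363 of all genes. In number and size of calls the list did not stand apart. By direction, more of the list rose and fewer fell than among all genes, of which 33.2% were higher and 32.8% lower. That difference in direction was not tested. The largest increases were those of Irak3, Nfkbia and Nfkb1. Irak3, which encodes IRAK-M, a kinase-dead brake on the pathway, went from 47.6 to 351 CPM in the mean (log2 fold change 2.88, SE 0.0525). Nfkbia, which encodes the NF-κB inhibitor IκBα, rose by 2.45 (SE 0.0614), and Nfkb1 by 1.25 (SE 0.0423). The largest falls among genes with a mean of at least 100 counts were small, with log2 fold changes of -0.40 for Mapk9, -0.31 for Tab2 and -0.14 for Chuk. The remaining decrease was that of Map2k6 (-1.05, SE 0.295), with a mean of 17.8 counts. Chuk passed only narrowly (adjusted p-value 0.0491, edgeR), and not under 10 of 13 alternatives. The adaptor Myd88 rose by 0.58 (SE 0.0607), while Traf6 (log2 fold change -0.16, SE 0.132) and Tollip (0.01, SE 0.0488) did not pass. These 3 and Map2k6 were named after their values were seen.

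Among 23 genes for proteases, inflammasome parts and membrane pores that process or release the ligands, 22 were in the files and 18 were tested, of which 10 rose, 5 fell and 3 did not pass, beside 33.2% higher and 32.8% lower among all genes. Their median absolute log2 fold change was 0.582. Aim2, a sensor of cytosolic DNA, rose from 8, 4 and 3 counts to 270, 240 and 317 (log2 fold change 5.67, SE 0.212). As Aim2 passed the filter on low counts only through the libraries labelled FTO, a call on it could only be higher. Gsdmd, which encodes the pore protein gasdermin D, rose by 1.28 (SE 0.0541), and Adam17, a sheddase, by 1.06 (SE 0.0456). Falls were seen for Nek7 (-1.05, SE 0.0774), a partner of NLRP3, for Casp4 (-0.67, SE 0.0655) and for Nlrp3 itself (-0.42, SE 0.131). Without FTO replicate 3 the log2 fold change of Nlrp3 was -0.29 and missed the threshold (adjusted p-value 0.0572, edgeR). Nlrc4 (-1.08, SE 0.233) and Capn2 (-0.41, SE 0.0408) also fell and were named after their values were seen. Casp1, the protease that cuts the precursors of IL-1β and IL-18, rose by 1.003 on the log2 scale (SE 0.134, adjusted p-value 8.8e-06, edgeR) from 93, 112 and 80 counts to 190, 195 and 215, and was named after its values were seen. The neutrophil proteases Ctsg, Elane and Prtn3 had 0 counts in every library.

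Genes that IL-1 is known to raise in fibroblasts, and that other stimuli raise too, were all higher. Of 25 listed, 23 were in the files and tested, and 23 rose, each past the threshold of the study, with a median log2 fold change of 5.35 (4.84 with the 4 genes at the Vector floor, Csf2, Csf3, Mmp3 and Mmp13, at their bounds). Among all genes 33.2% were higher and 19.6% passed the threshold of the study in either direction. The list was drawn up with earlier results of these data known, as were the others, so its count is a description and not independent evidence of a direction. The 4 genes at the Vector floor, among others, passed the filter on low counts only through the libraries labelled FTO. A call on them could thus only be higher. Csf3, which encodes the growth factor G-CSF, had 0 counts in each Vector library and 90.6 CPM in the mean of the libraries labelled FTO, at least 413-fold higher against the floor. Mmp3, which encodes a matrix protease, was at 0 counts in Vector too and was at least 108-fold higher. Lcn2, which encodes the iron-binding protein lipocalin-2, rose from 2.18 to 3483 CPM (log2 fold change 10.63, SE 0.120). These genes and the ligands moved in the same libraries, and the labels name no IL-1 or blocker of it among the treatments, so whether the ligands acted on them was not tested.

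**Figure D5:**
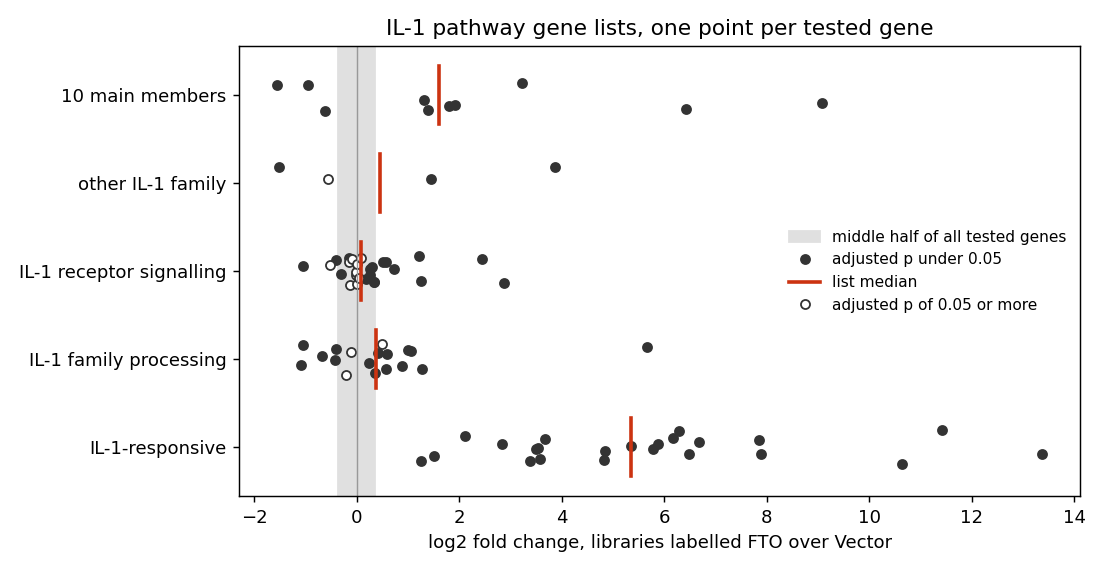
Fitted log2 fold change (x axis) of each tested gene of the 5 lists. Filled points passed an adjusted p-value of 0.05, red bars are list medians, and the grey band is the middle part of all 12941 genes, from the lower quartile (-0.36) to the upper (0.36). The IL-1-responsive genes all lie above the band, and the signalling genes lie mostly within or near it. Points of genes at the Vector floor (Il1a, Csf2, Csf3, Mmp3, Mmp13) depend on the prior count.

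Macrophages, a main source of IL-1β, IL-1Ra and IL-18, leave markers in such cultures, and these moved with the groups. Of 14 macrophage markers in the files, 13 fell and 1 (Adgre1) rose, and their summed level was 1918 to 1979 CPM in Vector and 327 to 368 CPM in the libraries labelled FTO. Most of the Vector sum was Lyz2, with means of 1116.5 CPM in Vector and 97.6 CPM in the libraries labelled FTO. C1qb and C1qc were at or under 3 counts in every library labelled FTO. Single falls ran from 1.67-fold for Cd14 to at least 87.0-fold for C1qb against the floor. Il1b and Il1rn thus rose where the summed macrophage markers fell, and Il18 fell with them. Fewer cells of a type and less RNA per cell cannot be told apart in bulk RNA, and the part of macrophages in the changes of these genes was not tested. Other markers also moved. The summed level of 6 endothelial markers, of which 4 were tested and 3 rose, was 19.3 to 19.8 CPM in Vector and 43.3 to 45.0 CPM in the libraries labelled FTO. Of 6 cardiomyocyte markers, 5 rose and 1 fell, with sums of 1293 to 1324 and 1960 to 2011 CPM. Of 5 epicardial markers, 4 rose and 1 fell (55.3 to 61.5 and 199.6 to 217.7 CPM), and of 4 tested mural markers 2 rose and 2 fell (325 to 338 and 205 to 243 CPM).

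Defining markers of mast cells and lymphocytes, which can carry ST2 and the IL-18 receptor, were at or near 0. The mast cell markers Cpa3, Tpsb2, Cma1 and Ms4a2 and the lymphocyte markers Cd3e, Cd3d and Nkg7 had at most 1 count in any library, and the neutrophil markers S100a9 and Mpo likewise. The other mast cell marker, Kit, and the other lymphocyte markers, Cd4, Cd8a and Gata3, none of which is particular to those cells, fell. The sums were 8.52 to 9.33 CPM in Vector and 2.19 to 2.60 CPM in the libraries labelled FTO for 5 mast cell markers, and 54.1 to 56.3 and 7.55 to 9.44 CPM for 6 lymphocyte markers. For 5 neutrophil markers they were 0.878 to 1.28 and 1.84 to 2.60 CPM. S100a8, the 1 tested, was higher, and it passed the filter on low counts only through the libraries labelled FTO. Csf3r, not tested, went the other way, from 9, 12 and 13 counts in Vector to 2, 1 and 1. Cxcr2, also not tested, had 0 counts in each Vector library and 7, 0 and 3 in those labelled FTO. Of 9 fibroblast markers, all were detected and tested, with 4 higher and 5 lower, and their summed level was 41260 to 41850 CPM in Vector and 21320 to 22330 CPM in the libraries labelled FTO. Most of that sum was Col1a1 (means of 25809 CPM in Vector and 8268 CPM in the libraries labelled FTO) and Col3a1 (10699 and 3338 CPM). Among the 4 higher, Dcn went from 47.0 to 5610.5 CPM in the mean, so the sum mainly follows the 2 collagen genes.

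Lastly, the genes outside the family whose pattern over the 6 libraries was most like each member were looked up, among 10032 genes with a mean of at least 100 counts. Likeness was the Euclidean distance between log2(CPM + 0.5) profiles, each centred on its own mean. The nearest gene was Tle3 for Il1rap (distance 0.0657), Il16 for Il1r1 (0.0826), Ugdh for Il18bp (0.0891), Tenm3 for Il1rl1 (0.108), Cd200 for Il18 (0.116) and Coq8a for Il1r2 (0.129). For Il1rn it was Rasl12 (0.166), for Il33 Stap2 (0.174), for Il1a Igfbp3 (0.180) and for Il1b Adora2a (0.376). With 2 groups that differ at most genes, such a match mainly says that the fold change is of like size. For Il1a the added 0.5 CPM shrinks the change, and the log2 fold change of Igfbp3 was 5.72.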

How the data were processed

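RNA from NRCFs was sequenced on an Illumina platform as 6 libraries. What the authors deposited were unnormalized counts by gene symbol. The submitters' processing notes name Trimmomatic and the build rn6, and the aligner, counter, annotation, use of strand and handling of multi-mapping reads are not given in the sources used here, so overlapping genes (Il1rn with Il36b, Il18 with Bco2 and Tex12) are uncertain to that extent. Groups came from the genotype labels. Genes were kept with filterByExpr (minimum count 10), libraries were scaled by TMM, with factors from 0.995 to 1.005, and groups were compared with the two-sided quasi-likelihood test of edgeR 4.0.16 in R 4.3.3, with Benjamini-Hochberg adjustment over 12941 genes. A gene with few counts in a group can pass that filter through the other group alone. A call on it can then only be higher in that other group. CPM are TMM-normalized. SE came from the fold change and its F statistic, and 95% intervals from the t distribution. Floors cover counting error alone. The procedure was tested on simulated counts.

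Alternatives were DESeq2 1.42.0, limma-voom (limma 3.58.1), DESeq2 size factors, library size alone, 2 other filters, the replicate number as a block, another pseudocount for the ratios, and leaving out each library. The members and lists were chosen with earlier results of these data known. Genes named are the members, Fto, the nearest profile of each member, and, from each of the 4 pathway lists, up to 3 increases and 3 decreases, the largest past an adjusted p-value of 0.05 with a mean of at least 100 counts. Nos2, Saa3, Itgam and Ube2v1 are not analysed here. Promoter windows are those of RefSeq for GRCr8.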

Additional observations from a re-analysis of the deposited data

How the results depend on the processing

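All 10 genes passed the adjusted threshold, 7 higher and 3 lower, under each of 13 alternatives. At the threshold of the study 8 passed, and 9 without FTO replicate 1 or 2, where Il18 reached -1.02 at its lowest. Over all genes the adjusted count ran from 7795 to 9009. The pathway counts moved within 3 to 4 (other family), 15 to 18 (signalling) and 15 to 16 (processing), and 23 IL-1-responsive genes passed throughout. Chuk lost its call under 10 alternatives, with adjusted p-values from 0.0174 to 0.170 over all 13, and Nlrp3 under 1. The cause was not tested. No pairing by replicate number was detected, as deviations of same-numbered libraries correlated at -0.0789 to 0.0346 and those of differently numbered ones at -0.115 to 0.109. With so few libraries per group a pairing could be missed. With the replicate block, 8399 genes and all 10 members passed, 16 in place of 17 signalling genes passed, and Chuk lost its call. No other call changed among the members, Fto and the genes picked by rule from the pathway lists. Calls on single genes named otherwise, such as Casp1, were not compared. With a pseudocount of 1 count, the log2 ratio of Il1rn to Il1a was lower by less, at -4.86 in place of -5.46. Depth limits Il1a and Il1b in Vector and the family genes with 4 counts or fewer.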
